A study of Pan troglodytes with 38 samples.

Results

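The cytosolic ribosome is the machine that translates messenger RNA into protein, and each particle holds a single copy of nearly every one of its proteins. Proteins of the small subunit carry the prefix RPS and those of the large subunit RPL, while RPLP0, RPLP1 and RPLP2 form the stalk to which elongation factors bind. Messages of these genes start with a tract of pyrimidines through which mTORC1 and LARP1 control their translation together. Several of the proteins have paralogues with restricted expression, among them RPL3L, a form of RPL3 found in heart and skeletal muscle.

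Members were the rows of the gene count table whose symbol is RPL or RPS with a number and an optional A, X or L, or RPLP0, RPLP1, RPLP2 or RPSA. They comprised 87 of 31373 rows, under 76 symbols. For 6 symbols (RPL21, RPL24, RPS18, RPS26, RPS3A and RPSA) several rows were present, 17 in all, and these are uncertain because reads of near-identical copies can be split between them. The filter on low counts was passed by 80 of the 87 rows. The median count was at least 1000 in 73 rows and under 25 in 12, among them RPL10L, a paralogue known from testis, and both rows of RPL24, with a median count of 1 each. No row carries the symbol RPL23A, RPL31, RPL32, RPL36A or RPL39, so the large subunit is not complete among the members.

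RNA-seq of post-mortem heart tissue from 38 chimpanzees was used, and the labels name no treatment. RNA was extracted in 2016 for 17 animals (10 females and 7 males, in 4 batches) and in 2018 for 21 animals (12 females and 9 males, in 1 batch), and extraction year cannot be told apart from published against new libraries. Age was known for 34 animals and was between 10 and 57 years, and RNA quality, given as the integrity number RIN with low values for degraded RNA, ranged from 2.5 to 8.4. A virus was noted for 8 animals, all extracted in 2018. Some of the animals are close relatives, so they are not fully independent replicates. Total counts per animal were between 43892814 and 132478050. Animals 537 and Little_R, which the study treats as outliers, stood apart, with a summed level of 10 cardiomyocyte markers of 12207 and 6122 CPM against a median of 58198 over all animals. The sum was as low in 495, at 11832 CPM, and results are not given without that animal. CPM are counts relative to the library size, here with library sizes scaled by the trimmed mean of M values (TMM). Fewer cells of a type and less RNA per cell cannot be told apart in bulk tissue.

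Ribosomal protein genes took a small share of the counts. The share of all counts was lowest in 4X0339 at 1.26%, had a median of 1.95% and was highest in 4x0025 at 2.85%. Its SD over the 38 animals was 0.369 percentage points. Median shares were 2.04% for 2016 and 1.84% for 2018, and the groups overlapped over most of their range. The 13 mitochondrially encoded genes took between 17.2% and 60.1% of all counts, the latter in 537. Without them the member share was between 2.08% in 554 and 4.29% in 4X0354, and the medians of both years lay close together at 2.86% and 2.83%. Genes of the large subunit held between 56.0% and 60.9% of the member counts, a narrow range from heart to heart, with the genes named above missing from the large subunit.

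**Figure D1:**
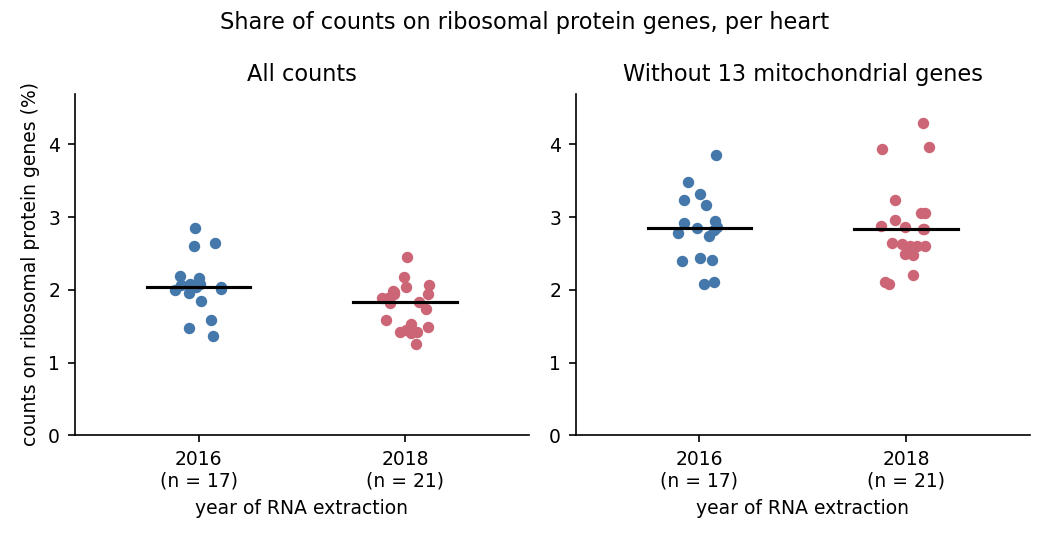
Each point is a heart, with the percentage of its counts on ribosomal protein genes on the vertical axis and the year of RNA extraction on the horizontal axis; lines are medians and the horizontal scatter within a year carries no value. Medians are 2.04% and 1.84% of all counts (left) and 2.86% and 2.83% without mitochondrial genes (right).

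Levels of different genes can be compared only per length, which the orthologous exon table allows for the 8 members that could be named there. CPM per kb are relative to the total count on orthologous exons, without TMM scaling, unlike the CPM elsewhere. RPS27, a zinc finger protein of the small subunit, was highest, with a lowest value of 351, a median of 537 and a highest value of 1858 CPM per kb of orthologous exon. It exceeded RPL11 (median 238 CPM per kb) in 38 of 38 animals. RPL11 exceeded the stalk gene RPLP2 (median 197) in 33 animals. RPL5, which with RPL11 and 5S RNA forms a particle that binds MDM2, had a median of 156 CPM per kb. The orthologous exons held 40.8% of its counts in the gene table, against 102% for RPL11 and 94.4% for RPLP2, so its place in the order is uncertain. RPS24 had a median of 99.7 CPM per kb, and RPL22 was lowest of the 8 at a median of 59.6 CPM per kb.

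Most members varied less between hearts than genes of similar mean level did, although how much less depended on the library size. Variability is given as the natural log of overdispersion minus its trend on mean expression over all genes. With the total count as library size, the median residual was -0.97 for 74 members and -0.12 for 11776 genes, and 72 of the 74 members lay below the median of all genes. With TMM library sizes it was -0.56 with 65 members below, and with totals on orthologous exons it was -0.23 with 47 of 75 below. Without 537 and Little_R it was -0.62 with 65 of 74 below, and without the mitochondrial genes, an alternative added after seeing the data, -0.60 with 65 of 75 below. It was also nearer to all genes in the 2016 animals alone (-0.27) than in the 2018 animals alone (-1.33). The median mitochondrial share was 28.7% in 2016 and 32.7% in 2018, and its part in this difference was not tested.

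Among single genes, the order depended on the library size. With the total count the lowest residuals were those of RPL27 (-1.62), RPS14 (-1.51), RPL17 (-1.48), RPL13A (-1.37) and RPS10 (-1.33). With TMM the lowest were RPL15 (-1.67), RPL5 (-1.46) and RPL4 (-1.43), and with orthologous exon totals RPL4 and RPL15 (both -1.41), while RPL17 moved to -0.18 and RPS10 to -0.39. RPS14 is the gene whose loss is known from 5q- syndrome, and RPL13A is often used as a reference gene for quantitative PCR. At the other end stood RPL3L with a residual of 0.99, above 91.3% of all genes, and RPL39L with 0.69; with TMM these were 1.27 and 0.64, and with orthologous exon totals 1.13 and 0.78. RPL39L is a paralogue of RPL39 best known from testis, and its median count of 194 was low. RPS19 (-0.13), mutated in Diamond-Blackfan anemia, RPL35A (-0.16) and RPS2 (-0.20) followed with the total count. RPS19 was above the trend with TMM (0.33), with orthologous exon totals (0.69) and in 2016 alone (0.62), and below it in 2018 alone (-0.58). RPL35A was above it with TMM (0.15) and in 2016 alone (0.48).

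**Figure D2:**
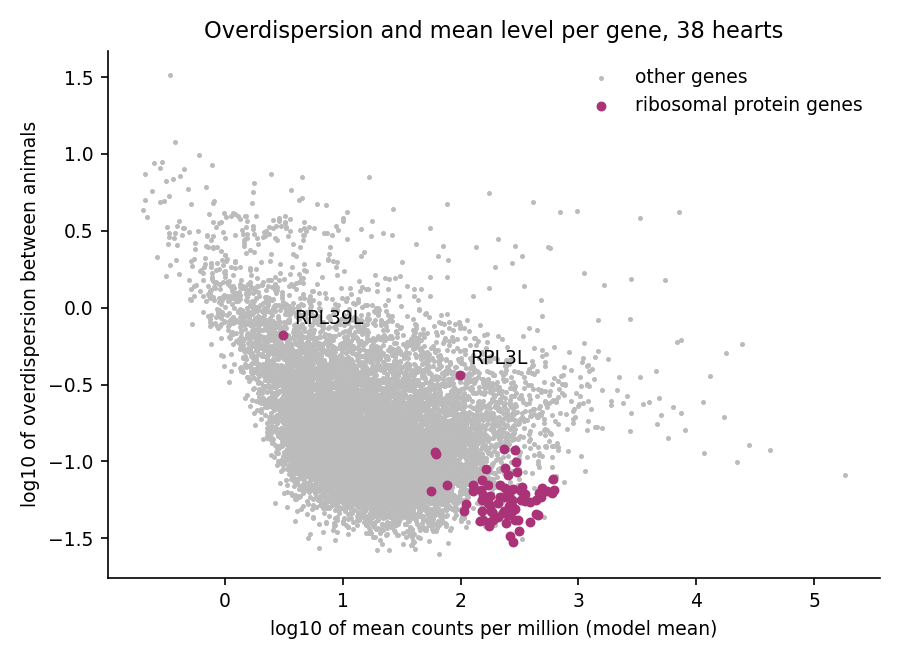
Each point is a gene, with log10 of its mean CPM in the model on the horizontal axis and log10 of its overdispersion between 38 hearts, with the total count as library size, on the vertical axis. Ribosomal protein genes (74 points) lie mostly at the lower edge of the 11776 genes, and RPL3L and RPL39L lie above the other members.

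Levels of the members also moved together from animal to animal. Over 3160 pairs of 80 members the median Pearson correlation of log2 CPM over 38 animals was 0.61, and 65.5% of pairs exceeded 0.5. Over all pairs of 15790 genes the median was -0.002 and 7.53% exceeded 0.5. Without TMM the medians were 0.58 for member pairs and 0.189 for all pairs, of which 18.8% exceeded 0.5. These are descriptions, as all pairs share the same libraries, their depth and their scaling. In the authors' normalized scores, which cover 74 members and 37 animals, the median over member pairs fell to 0.15 with 4.78% over 0.5, against -0.005 and 2.20% for all pairs of 13545 genes. Centring within extraction year gave 0.65. Over the 73 rows with a median count of at least 1000, a single principal component held 57.8% of the variance. The summed level of the members also correlated with that of other lists over the animals (on the log2 scale). The highest r was 0.88, for 6 other ribosomal proteins and paralogues outside the naming rule. It was 0.50 for 16 other messages with a pyrimidine tract, 0.23 for ribosome biogenesis genes and -0.09 for translation factors. For the mitochondrially encoded genes it was 0.41, and 0.39 each for adipocyte and endothelial markers. Cardiomyocyte markers had -0.14 and genes of mTORC1 signaling -0.31. FABP4 made up nearly all of the adipocyte sum, with a median of 174 CPM against 175 CPM for the sum. The part of these lists in the shared movement was not tested.

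RPL22 followed the mean of the other members most closely (r = 0.93), and RPL27A came next (r = 0.93). The weakest correlations belonged to RPL39L (r = 0.18), RPS2 (r = 0.15) and RPL3L (r = -0.14). The shared movement could be seen in single animals: in Little_R, 71 of the 73 abundant rows were above their median, by 0.75 on average on the log2 scale, and in 462 none was. The lowest average was that of 554 (-0.45). In 4X0354, 57 of the 73 were above their median, by 0.48 on average, but single members went different ways, with RPS12 at 720 CPM against a median of 231 and RPS2 at 96.6 CPM against a median of 223. RPL41 was likewise low there, at 107 CPM against a median of 253. This heart had a RIN of 3.3, a mitochondrial share of 42.99% and the highest sum of adipocyte markers, 827 CPM, whose part in these values was not tested.

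RPL3L (ENSPTRG00000007617) was the member with the highest variability for its mean level. Its level was lowest in 549 at 4.48 CPM, had a median of 102 CPM and was highest in 456 at 176 CPM. Little_R (9.85 CPM), 537 (23.5 CPM) and 495 (25.4 CPM) were the next lowest. RPL3 (ENSPTRG00000049360), the form used in most tissues, was between 153 CPM in 554 and 584 CPM in Little_R with a median of 259 CPM. RPL3L thus made up between 0.765% (549) and 45.04% (503) of the counts on both genes, with a median of 27.9%; these counts are not divided by length.

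RPL3L was low in Little_R and 549, where RPL3 was highest. It was near its median in 4x0043 (95.9 CPM), where RPL3 was also high at 459 CPM. In 495, RPL3L was low while RPL3 was below its median, at 235 CPM. Of 5 paralogue pairs compared over 38 animals, RPL3 and RPL3L were the single pair with a negative correlation, with r = -0.57 (permutation p = 0.00028, adjusted p = 0.0014). Spearman's rho was -0.34 (permutation p = 0.0391, adjusted p = 0.0652). Without 549 and Little_R, the animals farthest from the median of RPL3, r was -0.30 (permutation p = 0.0717), and without 537 and Little_R it was -0.43, so its size depends on the animals kept. It was -0.52 in the animals of 2016 (permutation p = 0.0259) and -0.63 in those of 2018 (permutation p = 0.0025), the former group holding 549 and the latter Little_R.

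The 4 hearts with the lowest RPL3L also had less signal from cardiomyocyte markers and more from markers of fibroblasts, endothelial cells and smooth muscle. The sum of 10 cardiomyocyte markers, of which MYH7 is the most abundant, was 28781 CPM in 549, 12207 in 537, 11832 in 495 and 6122 in Little_R, the last being the lowest of all animals. The sum of 7 fibroblast markers, led by DCN, was 2464, 4749, 1826 and 5919.9 CPM in the same order, against a median of 1058. The sum of 6 endothelial markers, led by VWF, was 1082, 2024, 1409 and 2108 CPM against a median of 760.0. The sum of 7 smooth muscle and pericyte markers, led by TAGLN, was 1332, 1089.8, 953 and 792 CPM against a median of 450.4, the value of 549 being the highest of all animals. None of these markers was at 0 in all animals. The next lowest hearts in RPL3L did not share the whole pattern. In 4x0025, with 34.5 CPM of RPL3L, the sums were 32113 (cardiomyocyte), 1106 (fibroblast), 702 (endothelial) and 679 CPM (smooth muscle and pericyte). In 570, with 46.2 CPM of RPL3L, they were 23845, 936, 593 and 362 CPM in the same order. The cardiomyocyte sum of 570 was thus lower than that of 549. Heart 456, where RPL3L was highest, also had the highest cardiomyocyte sum at 88735 CPM. The part of cell composition in the level of RPL3L was not tested.

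**Figure D3:**
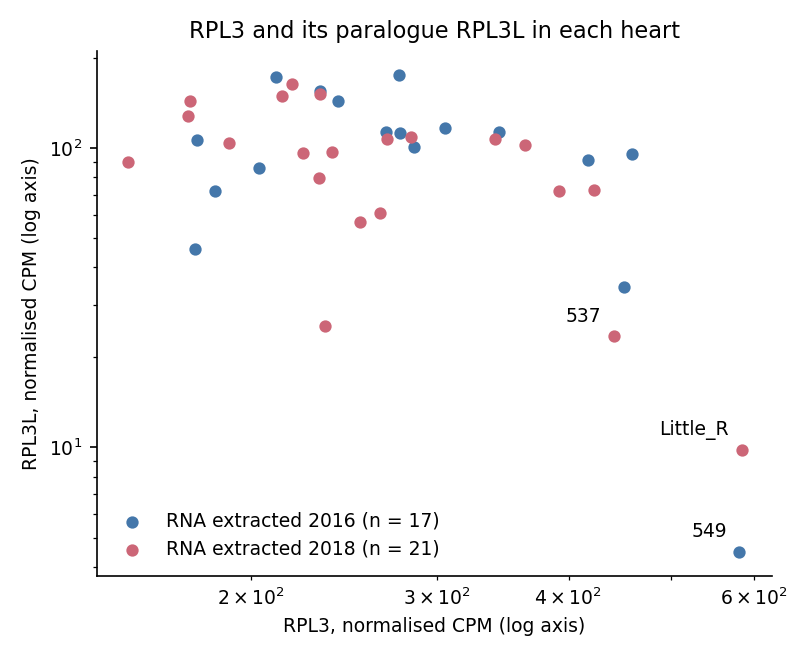
Each point is a heart, with RPL3 on the horizontal and RPL3L on the vertical axis in TMM-scaled CPM, both on log axes, and colors for the year of RNA extraction. Hearts 549, Little_R and 537 lie at the lower right with 4.48, 9.85 and 23.5 CPM of RPL3L.

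Other paralogues rose and fell with their partners or showed no clear relation. RPL26 and RPL26L1 had r = 0.43 (permutation p = 0.00738, adjusted p = 0.0123) and rho = 0.50 (permutation p = 0.00175, adjusted p = 0.00875). Without the farthest animals, 4X0354 and Little_R, r was 0.57, and it was 0.62 in 2016 and 0.35 in 2018 (permutation p = 0.00465 and p = 0.118). RPL22 and RPL22L1 had r = 0.43 (permutation p = 0.00682, adjusted p = 0.0123) and rho = 0.37 (permutation p = 0.0225, adjusted p = 0.0563). Without 4X0354 and Little_R, r was 0.34 (permutation p = 0.042). It was 0.68 in 2018 (permutation p = 0.0013) and 0.16 in 2016 (permutation p = 0.542), and the difference between these values was not tested. RPS27 and RPS27L, a paralogue induced by p53, had r = 0.32 (permutation p = 0.0532, adjusted p = 0.0665) and rho = 0.30 (permutation p = 0.0653, adjusted p = 0.0816). Without 537 and Little_R, r was 0.38 (permutation p = 0.0213). RPL7 and RPL7L1 had r = 0.13 (permutation p = 0.424, adjusted p = 0.424) and rho = 0.24 (permutation p = 0.137, adjusted p = 0.137).

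Between extraction years few members differed. Of 80 members tested with edgeR, 7 were higher in 2018 (11.2% of all 15790 genes were) and 1 was lower (4.82% of all genes). The median log2 difference was 0.02 for the members and -0.01 for all genes, so as a group they did not stand out. RNA quality also differed between the years, with a median RIN of 6.2 (lowest 4.2) in 2016 and 5.4 (lowest 2.5) in 2018. With RIN as a covariate, 8 of 81 members were higher (12.1% of 16462 genes) and 1 was lower (2.99%). Of the 7 called higher without RIN, 4 were rare copies of RPS3A, RPL21 and RPSA, with median levels under 0.3 CPM, and these are uncertain. Some may have passed the filter on low counts mainly through the 2018 animals, where they were higher. Medians in 2016 and 2018 were 0.0755 and 0.290 CPM for RPS3A_ENSPTRG00000046092, and 0.108 and 0.276 CPM for RPL21_ENSPTRG00000052807. Their calls therefore cannot serve as support for a difference by year. Which copy a read is assigned to could not be checked.

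The other 3 called higher (RPL17, RPS27L and RPL34) and the 1 called lower (RPS2) were abundant. RPS2 (ENSPTRG00000052871), near the entry of the messenger RNA channel, was between 172 and 397 CPM in 2016 (median 258) and between 96.6 and 254 CPM in 2018 (median 201). It was lower by a log2 difference of -0.46 ± 0.11 (SE, edgeR adjusted p = 0.00239), and 21 of 21 animals of 2018 lay below the median of 2016, although the ranges overlapped. RPL17, near the peptide exit tunnel, was higher by 0.35 ± 0.10 (edgeR adjusted p = 0.0168), with medians of 276 and 350 CPM. RPS27L was higher by 0.32 ± 0.10 (edgeR adjusted p = 0.0273), with medians of 45.6 and 59.2 CPM. RPL34 was higher by 0.39 ± 0.13 (edgeR adjusted p = 0.0412), with medians of 180 and 219 CPM.

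The calls by year depended on scaling. With library totals in place of TMM, the median of all genes moved to -0.20 and 3 members were higher (5.56% of all genes) and 23 lower (9.56% of all genes); RPS2 was still lower, and RPL17, RPS27L and RPL34 no longer passed. RPL34 also did not pass without 537 and Little_R (log2 difference 0.31). Among animals of the Yerkes center, 9 from 2016 and 12 from 2018, the 1 member called was a rare copy of RPS3A, uncertain as stated above. Calls over all genes fell there to 308 higher and 25 lower. The log2 differences there were -0.38 for RPS2, 0.37 for RPL17, 0.28 for RPS27L and 0.31 for RPL34, with the same signs as in all animals.

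Genes that work with the ribosome were called in both directions between years. Over all genes 11.2% were higher and 4.82% lower, and 8104 of 15790 log2 differences were below 0. Of 16 other messages with a pyrimidine tract, 1 was higher and 4 were lower, among them HNRNPA1 (log2 difference -0.49) and EEF1G (-0.35), and 13 of the 16 were below 0 with a median of -0.21. Of 52 ribosome biogenesis genes, 3 were higher and 4 lower, among the latter nucleolin NCL (-0.38), and 36 of the 52 were below 0 with a median of -0.11. Of 33 translation factors, 2 were higher and 3 lower, and 26 of the 33 were below 0 with a median of -0.20. LARP1, the repressor of these messages, was the 1 of 16 genes of mTORC1 signaling that differed (-0.36), and 10 of the 16 were above 0 with a median of 0.03. Markers of other cells also differed between years: 5 of 6 macrophage markers were lower and 3 of 4 adipocyte markers higher in 2018. The sum of macrophage markers, led by C1QA, had a median of 86.4 CPM in 2016 and 39.0 CPM in 2018. That of adipocyte markers had medians of 130 and 275 CPM. Nearly all of it was FABP4, with 127 and 261 CPM, and 4 of the 5 adipocyte rows had a median under 1 CPM. The part of these markers in the differences of RPS2, RPL17, RPS27L and RPL34 was not tested.

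RNA integrity had no member past the threshold. With edgeR, 0 of 81 members rose and 0 fell with RIN (0% of 16462 genes in either direction). At an unadjusted p under 0.05, 0 rose and 2 fell (7.88% and 5.94% of all genes). DESeq2 called 0 members in either direction, and 82 rising and 86 falling of all genes. The smallest p was that of RPL8, a protein next to the peptidyl transferase center, whose log2 slope was -0.08 ± 0.03 per RIN unit (edgeR adjusted p = 0.277). Slopes were below 0 for 63 of 81 members, with a median of -0.02, and for 7753 of all 16462 genes, with a median of 0.01. Without 537 (RIN 7.2) and Little_R (RIN 7.8), 77 of 81 slopes were below 0 with a median of -0.07 against -0.01 over all genes, and 34 members (7.36% of all genes) fell at an unadjusted p under 0.05, with 0 past the threshold. No marker of another cell type was called with RIN by edgeR either. All 7 fibroblast markers had slopes above 0 (median 0.26, 6 at an unadjusted p under 0.05) and all 4 adipocyte markers slopes below 0 (median -0.74, 3 at an unadjusted p under 0.05), and their part in the slopes of the members was not tested.

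Within extraction years the slopes were steeper in 2016. In these animals all 79 members tested had a slope below 0, with a median of -0.18 per RIN unit against 0.01 over all genes, and 47 fell at an unadjusted p under 0.05 (6.61% of all genes). RPL27A was called at -0.37 (edgeR adjusted p = 0.0462), as 1 of 2 genes that fell among 16266 (0.0123%). With extraction batch in the model, added after seeing the data, 76 of 79 slopes were below 0 with a median of -0.18 against 0.01 over all genes, and RPL27A was no longer called (slope -0.36, edgeR adjusted p = 0.603). In 2018 the median was 0.01, as over all genes, and 52 of 81 members were above 0, but this group holds 537 and Little_R. Without them, likewise added after seeing the data, the median was -0.03 against -0.0008 over all genes, and 65 of 81 slopes were below 0.

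The difference of the slopes between years, a test chosen after these values were seen, was past the edgeR threshold for 0 of 81 members (0% of 16910 genes in either direction). At an unadjusted p under 0.05 it was positive for 33 members (4.36% of all genes), and without 537 and Little_R for 18 (3.37% of all genes); DESeq2 was not run for it. All 81 differences were positive in both fits, but as the members move together they do not count as 81 separate observations.

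Sex was of interest because RPS4X and RPL10 lie on the X chromosome and RPS4X has copies on the Y chromosome. With edgeR, 0 of 80 members were higher in males (0.158% of all genes) and 0 lower (0.057%). At an unadjusted p under 0.05, 1 was higher and 2 were lower (5.62% and 2.80% of all genes), and DESeq2 called 0. Below 0 were 55 of the 80 members (median -0.04) and 8027 of all 15790 genes (median -0.004). With library totals in place of TMM, which moved the median of all genes to -0.12, these were 0 and 13 (3.32% and 5.59% of all genes). In 2016 alone 74 of 77 members had a log2 difference below 0 (median -0.16 against -0.01 over all genes), and in 2018 alone 50 of 79 were above 0 (median 0.05 against 0.01 over all genes). The difference between years, tested after these values were seen, was past the edgeR threshold for 0 of 81 members (0% of 16293 genes in either direction), with 0 at an unadjusted p under 0.05; DESeq2 was not run for it. All 7 fibroblast markers had log2 differences above 0 in males (median 0.89, 5 at an unadjusted p under 0.05, 0 past the threshold), as had all 6 endothelial, 6 T and NK cell and 3 red cell markers, with 0 past the threshold. All 13 mitochondrially encoded genes were above 0 in males as well, with a median of 0.45, and MT-ATP8 was called (log2 difference 7.93). Its median over all animals was 1.59 CPM, although the highest values were 1194 CPM in 2016 and 6474 CPM in 2018. The part of these genes and markers in the values of the members, those with library totals included, was not tested. RPS4X was between 198 and 513 CPM in females (median 299) and between 124 and 481 CPM in males (median 243). Its log2 difference of -0.35 ± 0.14 did not pass (edgeR adjusted p = 0.415). RPL10, which closes the active site late in subunit maturation, differed by -0.19 ± 0.10 (edgeR adjusted p = 0.618).

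The Y-linked copies, which the naming rule leaves out, separated the sexes without overlap. RPS4Y1 ranged from 42.1 to 116 CPM among males, while its highest female value was 0.260 CPM. RPS4Y2 ranged from 75.4 to 148 CPM among males, with a highest female value of 0.578 CPM. Together with RPS4X they had a median of 414 CPM in males against 299 CPM in females, with overlapping ranges. Reads of the 3 genes may be split among them by sequence similarity, so these sums are uncertain. RPLP0, the scaffold of the stalk, had the smallest p of all members (log2 difference -0.25 ± 0.09, edgeR adjusted p = 0.338), and 15 of 16 males lay below the female median.

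Ranges differed among the remaining genes of interest, and those of RPS19 and RPL36AL were wider. RPS6, the target of S6 kinase, was between 280 and 700 CPM (median 434). RPSA, also known as the laminin receptor, was between 157 and 433 CPM for its abundant row (median 242). RPS27A, made as a fusion with ubiquitin, was between 164 and 458 CPM (median 228). None of these 3 passed in any of the comparisons by year, RIN or sex. RPS3 was between 194 and 481 CPM (median 283), and RPL4 between 275 and 649 CPM (median 454). RPL13A was between 235 and 576 CPM (median 384), RPL5 between 282 and 604 CPM (median 425) and RPS19 between 30.5 and 127 CPM (median 54.5). RPLP1, the stalk protein with the largest part of the member counts (3.24%), was between 381 and 987 CPM (median 580). RPL36AL, a paralogue of RPL36A that the naming rule leaves out, was between 34.6 and 181 CPM (median 63.4).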

How the data were processed

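Values of the gene table are unnormalized read counts, deposited by the authors from STAR 2.6.1b alignments to the chimpanzee genome (the processing notes name GRCh38.p13). A further deposited table gives counts on exons orthologous to human, by featureCounts 1.6.3, with exon length as another value given by the authors. The normalized score was made by the authors from log CPM by standardizing genes and quantile normalizing animals. Symbols came from the reference table for 18040 of 31373 identifiers, and names of 8 members of the orthologous exon table from the study's tables. Extraction year, RIN, sex, age and center are not in the labels and were read from the study's sample table. The human table and 1 further animal were not used here (52 columns).

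Tests were edgeR 4.0.16 (quasi-likelihood, filterByExpr, TMM) over all genes, with Benjamini-Hochberg adjustment at 0.05 and DESeq2 1.42.0 as an alternative. Models held sex and extraction year, and RIN where tested. SE was taken as the log2 difference divided by the root of F. Overdispersion was fitted with MASS 7.3.60.0.1 in R 4.3.3 for genes of at least 6 CPM in at least 1 animal, with a LOESS trend of degree 1. Paralogues were compared on log2(CPM + 0.5) with two-sided tests of 100000 permutations. Steps were tested on simulated data. No animals had identical counts. Named genes are members past a threshold with the smallest p, the extremes of level and variability, paralogues, X-linked and stalk genes and well studied members. Genes singled out for deviating in 1 animal or for their correlation, RPL8, RPL15 and RPL27A were chosen after their values were seen. Values of some single members are not reported here. Members and lists were chosen with earlier results of these data known.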

Additional observations from a re-analysis of the deposited data

How the results depend on the processing

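Members higher in 2018 numbered 7, but 3 with library totals without TMM, 1 in Yerkes animals and 3 among rows with a median count of at least 1000 (chosen after seeing the data). Members lower in 2018 numbered 1, but 2 with DESeq2, 23 without TMM, 3 without 537 and Little_R and 0 in Yerkes animals (edgeR; unadjusted p under 0.05 for 1). Without TMM all genes split into 878 higher and 1509 lower, against 1775 and 761. Falling with RIN went from 0 to 1 in 2016 alone, and to 0 with extraction batch in that model (edgeR; unadjusted p under 0.05 for 22; added after seeing the data). The median share moved from 1.95% to 2.83% without mitochondrial genes. Relative to the total on orthologous exons, which were counted separately, the median of the member counts was 3.24%. This is a ratio and not a share, as that total does not contain these counts. Variability of members moved from -0.97 to -0.56 (TMM), -0.23 (orthologous exon totals), -0.62 (without 537 and Little_R), -1.33 (2018), -0.27 (2016) and, chosen after seeing the data, -0.60 (without mitochondrial genes). Covariation moved from 0.61 to 0.65 (centred within year), 0.57 (without 537 and Little_R), 0.58 (without TMM) and, chosen after seeing the data, 0.15 (deposited score) and 0.65 (abundant rows). Medians over genes or pairs have no spread between replicates, so each change in the second decimal is given. The cause of these changes was not tested. The start motif of members was not run. Counts under 25 limit what 12 rows can show.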
